A study of Mus musculus with 12 samples.

Results

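The DNA methylation and silencing machinery was followed here in mouse osteosarcoma cells through 10 genes fixed by name: Dnmt1, Dnmt3a, Dnmt3b, Dnmt3l, Uhrf1, Tet1, Tet2, Tet3, Setdb1 and Trim28. Of these, 9 had a probe that could be matched through its RefSeq transcript, with 15 probes of 39429 and 9 genes of 20144 named genes on the array. Tet1 had no matched probe and was not analysed here. The cells were the Dunn line, an osteoblastic mouse osteosarcoma line of low metastatic activity, and LM8, a metastatic line derived from Dunn by selection in vivo. RNA was taken at an early and a late passage of each line, giving the groups Dunn_25, Dunn_86, LM8_24 and LM8_91, named by line and passage number, with 3 one-colour Agilent arrays each. All groups were grown in the same medium, and each line was 1 line carried through culture, so passage and line were each followed in a single lineage. The labels do not say that the replicates came from separate cultures, and p-values then measure only the spread between these arrays, which may be technical.

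Cytosine methylation at CpG sites is copied to the new strand after replication by Dnmt1, which is brought to hemimethylated DNA by Uhrf1. New methylation is laid down by Dnmt3a and Dnmt3b, with Dnmt3l as a cofactor without catalytic activity that is best known from germ cells. Tet enzymes oxidise methylated cytosine as a step towards its removal. Trim28 is the corepressor that KRAB zinc finger proteins bring to DNA, and it recruits Setdb1, a methyltransferase for lysine 9 of histone H3, to silence endogenous retroviruses and imprinted regions.

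Values are log2 signals relative to the 75th percentile of the same array, and a gene is represented by its probe with the highest mean over the 12 arrays. The 75th percentile itself was lowest in Dunn_25, at 253.2 to 522.1 signal units, against 609.5 to 840.6 in Dunn_86, 788.3 to 1148 in LM8_24 and 1033 to 1699 in LM8_91. On this scale the median probe was lower in LM8 than in Dunn by a log2 difference of -0.80 with passages pooled. Over the 12754 probes that every array placed well above background that shift was -0.39. Between passages it was -0.29 in Dunn and -0.09 in LM8 over the same probes. For this reason differences of the members are also given relative to these 12754 probes. Arrays of a group correlated at 0.958 or more, except in Dunn_86, where 1 array stood apart and the lowest correlation was 0.908. Each of the 3 slides held 1 array of every group, and a replicate number is the slide number. Of 8 osteoblast lineage markers measured, 5 to 8 were well above background on each array, the others having flagged spots and no value. Of 5 epithelial markers 0 to 2 were, of 4 endothelial markers 1 to 3 and of 5 macrophage and leukocyte markers 2 to 4. The part of these other markers in the results below was not tested.

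The bases just before the start of transcription are shown for Dnmt1, Uhrf1 and Setdb1, whose brightest probe passed the test between the lines, and for Dnmt3b, of which 2 of 3 probes did. They come from RefSeq, build GRCm38.p6, and are the 250 bases before a start, 5′ to 3′ on the strand of the gene. All 10 members had at least 1 window, 17 in all. Capitals mark matches, on either strand, to the GC box GGGCGG, the CCAAT box CCAAT, or an E2F-type site spelled TTTCCCGC, TTTCGCGC, TTTGCCGC or TTTGGCGC. Where a gene had several starts, the window richest in CpG was taken among those not within 500 bases downstream of another start.
Dnmt1, chr9:20952980-20953229, minus strand: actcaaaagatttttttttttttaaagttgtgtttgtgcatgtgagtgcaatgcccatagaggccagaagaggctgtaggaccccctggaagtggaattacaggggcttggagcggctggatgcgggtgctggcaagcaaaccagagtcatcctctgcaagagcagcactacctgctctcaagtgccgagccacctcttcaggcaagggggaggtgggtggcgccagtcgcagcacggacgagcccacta
Uhrf1, chr17:56304063-56304312, plus strand: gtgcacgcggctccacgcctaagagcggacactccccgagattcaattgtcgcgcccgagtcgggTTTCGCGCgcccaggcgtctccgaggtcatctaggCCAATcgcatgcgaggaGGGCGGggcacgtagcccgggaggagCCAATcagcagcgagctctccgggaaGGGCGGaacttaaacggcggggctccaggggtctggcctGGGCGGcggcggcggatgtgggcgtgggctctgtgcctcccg
Dnmt3b, chr2:153649199-153649448, plus strand: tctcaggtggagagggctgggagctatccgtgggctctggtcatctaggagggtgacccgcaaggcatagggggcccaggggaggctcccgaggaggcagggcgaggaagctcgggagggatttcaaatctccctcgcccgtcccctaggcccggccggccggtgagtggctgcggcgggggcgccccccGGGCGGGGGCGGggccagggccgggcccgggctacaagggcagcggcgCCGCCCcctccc
Setdb1, chr3:95357203-95357452, minus strand: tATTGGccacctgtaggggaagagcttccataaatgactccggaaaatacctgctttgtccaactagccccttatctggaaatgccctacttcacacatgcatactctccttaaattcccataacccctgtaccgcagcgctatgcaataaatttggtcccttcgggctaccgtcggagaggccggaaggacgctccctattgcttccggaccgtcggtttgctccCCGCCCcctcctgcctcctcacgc
The Uhrf1 window held 1 E2F-type match, 3 GC boxes, 2 CCAAT boxes and 30 CpG sites. Among the 32851 windows of all genes, 1.86% held an E2F-type match, 32.7% a GC box and 33.8% a CCAAT box, and the median number of CpG sites was 6. The Dnmt1 window had 7 CpG sites and none of the motifs. A further Dnmt1 window, not printed because it lies close downstream of the printed start, held 26 CpG sites, 1 E2F-type match, 2 GC boxes and 3 CCAAT boxes. The Dnmt3b window had 21 CpG sites and 3 GC boxes, and the Setdb1 window had 13 CpG sites, 1 GC box and 1 CCAAT box. These matches describe the letters of the windows only, since neither binding nor methylation was measured.

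Dnmt1, the maintenance methyltransferase, was lower in LM8 than in Dunn after scaling. In Dunn_25 the log2 values were 2.74, 2.45 and 3.08 on slides 1 to 3, and in Dunn_86 they were 2.10, 2.04 and 2.30. In LM8_24 they were 1.74, 1.47 and 1.70, and in LM8_91 1.34, 1.55 and 1.44. All 6 LM8 arrays lay below all 6 Dunn arrays, as was so for 13.9% of all genes. With passages pooled, LM8 was lower by a log2 difference of -0.91 (SE 0.21, n = 6 arrays a line, adjusted p = 0.0124, limma with Benjamini-Hochberg adjustment over all probes), while the unscaled deposited values gave 0.28 in the other direction. Relative to the median probe above background the pooled difference was -0.52. The unscaled signals were 2260, 2846 and 2144 in Dunn_25 and 2868, 3455 and 3008 in Dunn_86. They were 2640, 3181 and 3513 in LM8_24 and 2607, 4991 and 3371 in LM8_91, so that on the raw scale the lines overlapped.

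Of the 4 combinations of passages, Dnmt1 passed the test only for LM8_91 versus Dunn_25, with a log2 difference of -1.31 (SE 0.30, adjusted p = 0.0247, limma), or 0.56 in the other direction without scaling. Within slides 1, 2 and 3 this difference was -1.41, -0.89 and -1.64. Leaving out 1 array lost this call in 4 of 6 fits, whereas the pooled call held in 12 of 12. For LM8_24 versus Dunn_25 the difference was -1.12 (SE 0.31, adjusted p = 0.074). For LM8_91 versus Dunn_86 it was -0.70 (SE 0.21, adjusted p = 0.171), and for LM8_24 versus Dunn_86 it was -0.51 (adjusted p = 0.444). The groups did not overlap in any of the 4. Among all genes, 58.1% were lower without overlap for LM8_91 versus Dunn_25, 48.7% for LM8_24 versus Dunn_25, 44.1% for LM8_91 versus Dunn_86 and 20.5% for LM8_24 versus Dunn_86.

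Within a line, Dnmt1 read lower at the late passage of Dunn without passing the test. The group means were 2.76 ± 0.32 (SD, n = 3) in Dunn_25 and 2.15 ± 0.14 in Dunn_86, a difference of -0.61 (SE 0.31, adjusted p = 0.767) with no overlap, as for 17.9% of all genes in that direction. In LM8 the means were 1.64 ± 0.15 and 1.44 ± 0.11, and the difference of -0.19 lay within overlapping arrays (adjusted p = 0.568). Without scaling these differences were 0.37 and 0.19. The interaction of line and passage for Dnmt1 was 0.41 (SE 0.32, adjusted p = 1, limma).

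**Figure D1:**
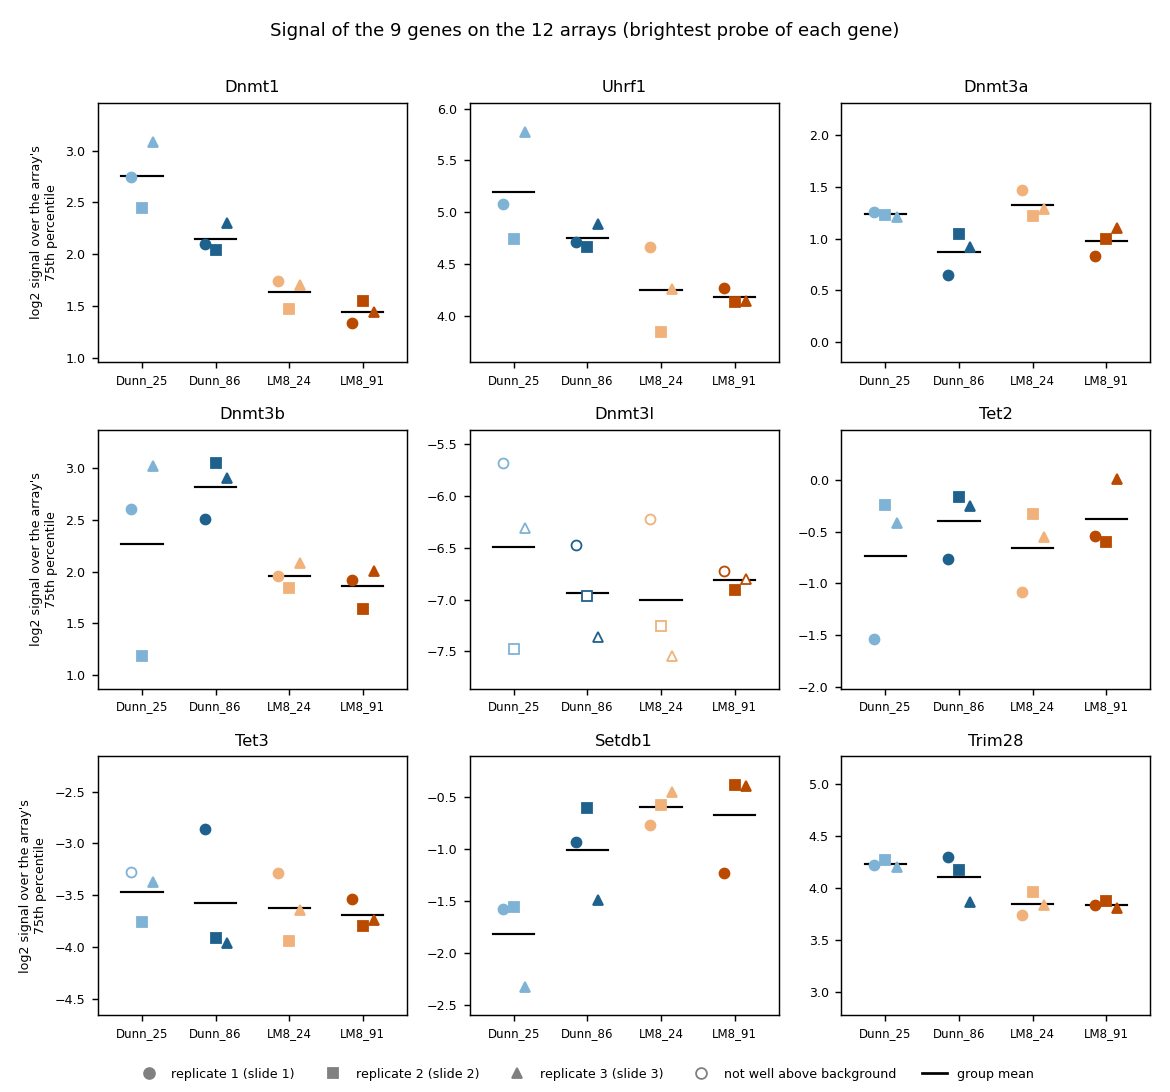
Log2 signal of the 9 measured genes over the 75th percentile of the array (vertical axis) on each of the 12 arrays, by group (horizontal axis), with marker shape giving the slide and open markers a signal not well above background. Dnmt1 and Uhrf1 lie lower on all LM8 arrays than on all Dunn arrays, Setdb1 lies lowest in Dunn_25, and Dnmt3l is at background on all but 1 array.

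Uhrf1, which reads hemimethylated CpG sites and ubiquitinates histone H3 to bring in Dnmt1, followed the same order. Its log2 values were 5.08, 4.74 and 5.77 in Dunn_25 and 4.71, 4.66 and 4.89 in Dunn_86. They were 4.66, 3.84 and 4.26 in LM8_24 and 4.27, 4.13 and 4.14 in LM8_91. The lines did not overlap, although the highest LM8 array and the lowest Dunn array were both 4.66 at this rounding. Such a separation, lower in LM8, held for 13.9% of all genes. With passages pooled the difference was -0.76 (SE 0.23, adjusted p = 0.0288, limma), or -0.37 relative to the median probe above background and 0.43 without scaling. Uhrf1 also passed for LM8_91 versus Dunn_25, by -1.02 (SE 0.35, adjusted p = 0.0478, limma), with -0.81, -0.61 and -1.63 within the slides. Without scaling that difference was 0.85, and with the slide as a block its adjusted p was 0.0646. The other 3 combinations did not pass, at -0.94 for LM8_24 versus Dunn_25, -0.57 for LM8_91 versus Dunn_86 and -0.50 for LM8_24 versus Dunn_86. A second and much dimmer Uhrf1 probe, A_66_P120074, was lower in LM8 by -0.74 with passages pooled (SE 0.27, adjusted p = 0.0428), but its lines overlapped. The LM8_91 versus Dunn_25 call of Uhrf1 was lost in 5 of 6 fits that left out 1 array, and also after normexp (adjusted p = 0.0644) and with the mean of its probes (adjusted p = 0.0555). The pooled Uhrf1 call was lost in 3 of 12 fits that left out 1 array, each of them an LM8 array. The passage differences of Uhrf1 were -0.44 in Dunn and -0.07 in LM8 (adjusted p = 0.767 and 0.886).

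Over the 12 arrays Dnmt1 and Uhrf1 had a Pearson r of 0.933, and each ran against Setdb1, at -0.839 and -0.860. On the 75th percentile scale Dnmt1 had the widest span of group means among the members, 1.32 against 1.23 for Setdb1. Relative to the median probe above background, LM8_91 differed from Dunn_25 by -0.71 for Dnmt1 and by 1.76 for Setdb1. The genes whose profile over the 12 arrays was most like that of Dnmt1, of 11293 searched, were Med12 (r = 0.991), Pbxip1 (r = 0.988) and Antxr1 (r = 0.985). These coefficients describe arrays that share a line, a passage and a scale, and the brightness of the array moved in the same order of groups.

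Dnmt3b, a de novo methyltransferase, was read by 3 probes that had the same sign between the lines with passages pooled but differed in size. The brightest, A_55_P2130535, gave 2.60, 1.19 and 3.02 in Dunn_25 and 2.51, 3.05 and 2.90 in Dunn_86. It gave 1.96, 1.84 and 2.08 in LM8_24 and 1.92, 1.64 and 2.01 in LM8_91. Dunn_25 replicate 2 was therefore lower than all LM8 arrays on this probe, while the other 5 Dunn arrays were higher than all of them. The pooled difference was -0.64 (SE 0.30, adjusted p = 0.0915, limma) and did not pass. For the separate combinations it was -0.32 for LM8_24 versus Dunn_25, -0.41 for LM8_91 versus Dunn_25, -0.87 for LM8_24 versus Dunn_86 and -0.97 for LM8_91 versus Dunn_86. None of these passed the test. Relative to the median probe above background, LM8_24 and LM8_91 differed from Dunn_25 by 0.17 and 0.19 on this probe. From Dunn_86 they differed by -0.69 and -0.68, and the relative difference with passages pooled was -0.25. Without Dunn_25 replicate 2 the pooled difference was -0.91 (adjusted p = 0.00955, limma) and that of LM8_91 versus Dunn_25 -0.95 (adjusted p = 0.0429), both past the threshold. Without scaling, and with all arrays, the pooled difference was 0.55 and that of LM8_91 versus Dunn_25 1.45, and the latter passed in the other direction (adjusted p = 0.0364).

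The other Dnmt3b probes separated the lines after scaling, while their unscaled signals overlapped. Probe A_55_P2008874 read 1.64, 1.27 and 2.24 in Dunn_25 and 1.48, 1.55 and 1.65 in Dunn_86. In LM8 it read 0.58, 0.24 and 0.55 at the early and 0.52, 0.36 and 0.20 at the late passage, below every Dunn array. Its unscaled signals were 1050, 1259 and 1192 in Dunn_25 and 1866, 2462 and 1912 in Dunn_86, against 1175, 1354 and 1590 in LM8_24 and 1484, 2182 and 1424 in LM8_91. Its pooled difference was -1.23 (SE 0.19, adjusted p = 0.00143), and that of the third probe, A_55_P1975903, was -0.92 (SE 0.20, adjusted p = 0.00869, limma), again with no overlap. Among all genes, 13.9% were lower in LM8 without overlap. Relative to the median probe above background the pooled differences of these 2 probes were -0.84 and -0.53. Both probes also passed for LM8_91 versus Dunn_25, at -1.35 (adjusted p = 0.0247) and -1.12 (adjusted p = 0.0303). The mean of the 3 probes was lower in LM8 by -0.93 with passages pooled (SE 0.21, adjusted p = 0.0117). These Dnmt3b probes are annotated to the same RefSeq transcript, and the passage difference was not past the threshold on any of them in either line.

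**Figure D2:**
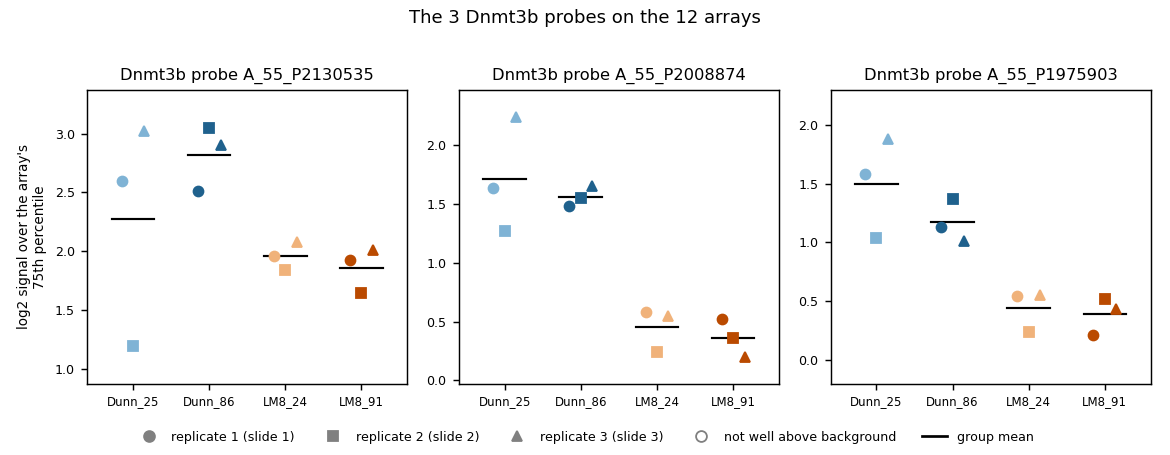
Log2 signal of the 3 Dnmt3b probes over the 75th percentile of the array (vertical axis) on the 12 arrays, by group (horizontal axis). On the left, brightest probe, Dunn_25 replicate 2 at 1.19 falls below the LM8 arrays, whereas on the other probes every Dunn array lies above every LM8 array.

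Dnmt3a, the other de novo methyltransferase, did not separate the lines after scaling and read lower at the late passage of each, a direction that the unscaled signals did not share. The values were 1.26, 1.23 and 1.21 in Dunn_25 against 0.65, 1.04 and 0.92 in Dunn_86. They were 1.47, 1.22 and 1.29 in LM8_24 against 0.83, 1.00 and 1.10 in LM8_91. Late and early arrays did not overlap in either line. The differences of -0.36 (SE 0.28, adjusted p = 0.767) in Dunn and -0.35 (SE 0.19, adjusted p = 0.314, limma) in LM8 did not pass the test. Relative to the median probe above background they were -0.07 and -0.26, and without scaling 0.62 and 0.03. Among all genes 17.5% were lower without overlap at the late passage of LM8. With passages pooled LM8 differed from Dunn by 0.10 (SE 0.18, adjusted p = 0.659), but by 1.29 without scaling (adjusted p = 0.0116).

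Dnmt3l was not well above background on 11 of the 12 arrays. Its group means of -6.49, -6.94, -7.00 and -6.81 are therefore levels of background, and differences between them are not read.

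The Tet genes gave no call on their brightest probes. Tet2 ranged from -1.54 to 0.01 over the 12 arrays, with group means of -0.73 and -0.39 in early and late Dunn and -0.66 and -0.38 in early and late LM8. The lines overlapped, with a pooled difference of 0.05 (SE 0.27, adjusted p = 0.894). A dimmer Tet2 probe, A_55_P2051405, gave -0.18 (SE 0.20, adjusted p = 0.454) with the lines overlapping. Tet3 was dim, with group means between -3.47 and -3.69 and 1 array of Dunn_25 not well above background. Its pooled difference was -0.14 (SE 0.23, adjusted p = 0.626). A dimmer Tet3 probe, A_52_P491273, passed with passages pooled at -1.11 (SE 0.41, adjusted p = 0.0456, limma). That probe was well above background on 4 of 6 Dunn and 6 of 6 LM8 arrays, and the lines overlapped. The third Tet3 probe, A_51_P199339, was not well above background on any Dunn_25 array. The mean of the Tet3 probes was lower in LM8 by -0.77 with passages pooled and passed the threshold.

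Setdb1 was the member that was higher in LM8. Its values were -1.58, -1.56 and -2.33 in Dunn_25 and -0.93, -0.60 and -1.49 in Dunn_86. They were -0.77, -0.57 and -0.45 in LM8_24 and -1.23, -0.38 and -0.39 in LM8_91. The Dunn_25 arrays lay below all others, whereas Dunn_86 overlapped with LM8. LM8_91 was higher than Dunn_25 by 1.16 (SE 0.39, adjusted p = 0.0453, limma), and by 0.35, 1.18 and 1.94 within the slides. With the slide as a block its adjusted p was 0.0563. With passages pooled the difference was 0.78 (SE 0.29, adjusted p = 0.0434), or 1.17 relative to the median probe above background. After normexp background correction the pooled difference was 0.28 (adjusted p = 0.238), and after quantile normalisation it was 0.73 (adjusted p = 0.0712). LM8_24 differed from Dunn_25 by 1.23 (SE 0.34, adjusted p = 0.074). Among all genes, 9.21% were higher without overlap for LM8_91 versus Dunn_25 and 6.67% for LM8_24 versus Dunn_25, as Setdb1 was in each. The LM8_91 versus Dunn_25 call was lost in 4 of 6 fits that left out 1 array and the pooled call in 10 of 12. From Dunn_86 the late and early LM8 groups differed by 0.34 and 0.41, neither past the threshold. Between the passages of Dunn, Setdb1 was higher late by 0.82 with no overlap (3.39% of all genes) but did not pass (SE 0.40, adjusted p = 0.767), and between those of LM8 it differed by -0.07.

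Trim28, the partner of Setdb1, was among the brighter members and varied little after scaling. Its means were 4.23 ± 0.04 in Dunn_25, 4.11 ± 0.23 in Dunn_86, 3.85 ± 0.11 in LM8_24 and 3.84 ± 0.03 in LM8_91. The pooled difference of -0.33 (SE 0.15, adjusted p = 0.0938, limma) did not pass, and relative to the median probe above background it was 0.06. LM8_24 and LM8_91 lay below Dunn_25 without overlap, as did 48.7% and 58.1% of all genes. Without scaling the pooled difference was 0.86, and that of LM8_91 versus Dunn_25 was 1.48. The passage differences after scaling were -0.12 in Dunn and -0.01 in LM8.

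**Figure D3:**
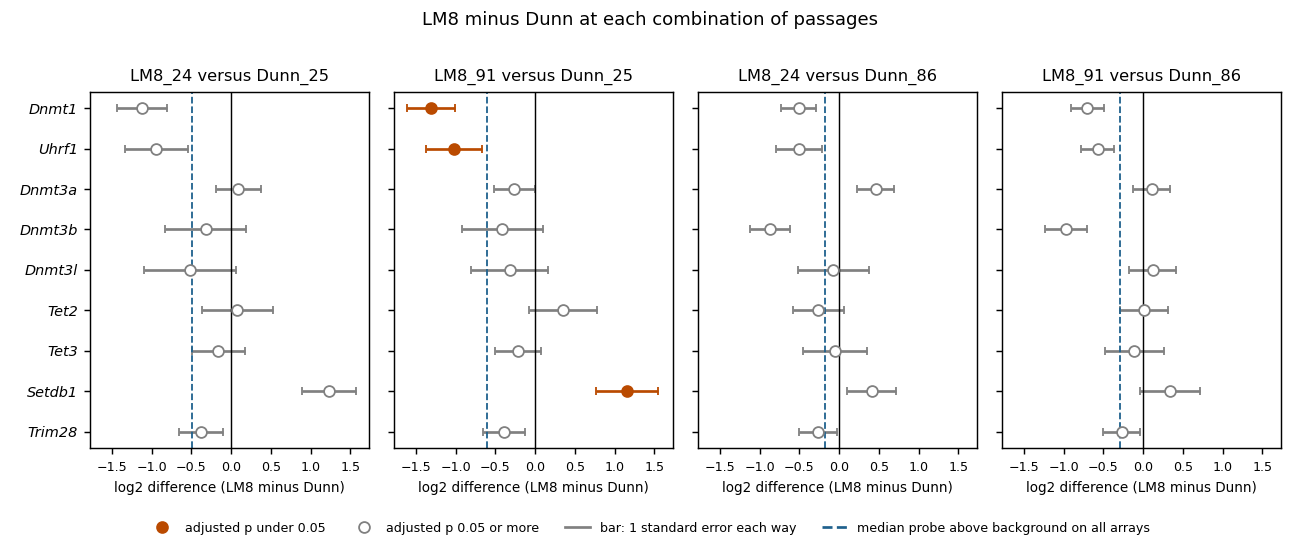
Log2 difference of LM8 minus Dunn (horizontal axis) for the 9 measured genes (vertical axis) at the 4 combinations of passages, with bars of 1 standard error each way and filled points past an adjusted p of 0.05. The filled points are Dnmt1 at -1.31, Uhrf1 at -1.02 and Setdb1 at 1.16 for LM8_91 versus Dunn_25, and the dashed line is the median over the 12754 probes that rose above background on each array, between -0.18 and -0.60.

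Counted over the 9 measured members, 0 passed limma's test between the passages of Dunn, where 0.00497% of all genes passed. At an unadjusted p under 0.05 it was 0 members against 7.23% of all genes. Between the passages of LM8 0 passed, against 2.79% of all genes, and at an unadjusted p 0 against 15.9%. For LM8_24 versus Dunn_25 0 passed (4.65% of all genes), and 2 at an unadjusted p (43.3%). For LM8_91 versus Dunn_86 0 passed (3.85%), and 3 at an unadjusted p (22.7%). For LM8_24 versus Dunn_86 0 passed (2.92%), and 1 at an unadjusted p (15.4%). The methods' t-test with the same adjustment called 2 members for LM8_91 versus Dunn_86 and 0 in the other comparisons named so far. For LM8_91 versus Dunn_25, 3 passed, 1 higher and 2 lower, when 48.6% of all genes passed, 5.31% higher and 43.3% lower. With passages pooled 3 passed, again 1 higher and 2 lower, against 44.6% of all genes, 5.48% higher and 39.1% lower. With only 9 members, these shares are not read as differing from those of all genes. The median difference of the members was -0.32 for LM8_91 versus Dunn_25 and -0.20 with passages pooled, beside -0.95 and -0.68 over all genes. All genes include many near background. Over the 12754 probes well above background on every array the median was -0.60 and -0.39. No member passed in all 4 combinations, as 1.53% of all genes did. At over 2-fold with an unadjusted p under 0.05, 2 members passed for LM8_24 versus Dunn_25 (37.2% of all genes), 3 for LM8_91 versus Dunn_25 (50.4%) and 0 with passages pooled (38.4%). The interaction of line and passage was called for 0 members, 0 also at an unadjusted p, and for 0.616% of all genes.

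**Figure D4:**
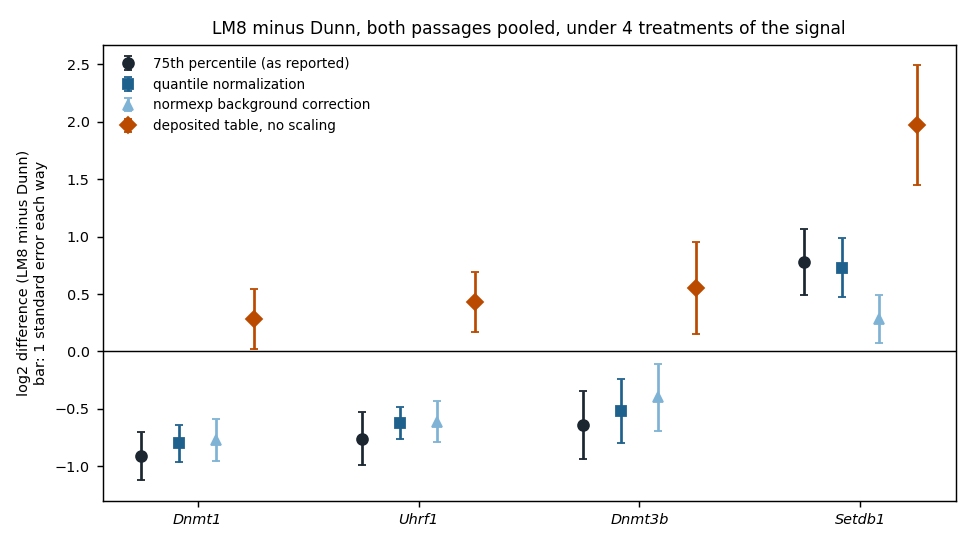
Log2 difference of LM8 minus Dunn with passages pooled (vertical axis, bars of 1 standard error each way) for 4 genes (horizontal axis) under 4 treatments of the signal. Dnmt1 is at -0.91 after 75th percentile scaling and at 0.28 in the deposited table without scaling, and Uhrf1 moves from -0.76 to 0.43, while Setdb1 is above 0 under all 4.

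The genes around the members were read from fixed lists, and the pooled comparison is given with the late LM8 against early Dunn comparison beside it. With passages pooled 5.48% of all genes were higher in LM8 and 39.1% lower, which are the shares to set beside the counts of these lists. The directions hold on the 75th percentile scale and were not recomputed without it. Of 7 maintenance cofactors, only Pcna, the replication clamp, passed with passages pooled, higher in LM8 by 1.75 (SE 0.41, adjusted p = 0.0147). It was higher by 2.46 for LM8_91 versus Dunn_25, and the median of the list was 0.14 with passages pooled. Pcna had no value on Dunn_25 replicate 2, was well above background on 5 of 6 Dunn arrays, and its lines overlapped with passages pooled. Of 9 methyl-CpG readers 1 was higher and 2 were lower in LM8 with passages pooled. Mbd6 was higher by 1.32 (adjusted p = 0.0487), whereas Zbtb4, a zinc finger reader of methylated DNA, was lower by -1.20 and Mbd5 by -1.12. Mbd6 was well above background on 4 of 6 Dunn arrays, and its lines overlapped. Of 12 demethylation cofactors 1 was higher and 4 were lower, with a median of -0.34. Gadd45b was higher by 0.49 (adjusted p = 0.0468), while Cxxc4, among those called lower, was not well above background on any array.

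Among 21 other genes of H3K9 methylation and heterochromatin, 3 were higher and 5 lower in LM8 with passages pooled, with a median of -0.15. Tasor and Mphosph8, both subunits of the HUSH silencing complex, were higher by 1.76 (SE 0.34, adjusted p = 0.00508) and 1.61 (SE 0.58, adjusted p = 0.0422, limma). Daxx, a chaperone of the histone variant H3.3, was lower by -0.97 (SE 0.16, adjusted p = 0.00184), and Morc2a, a chromatin ATPase that acts with HUSH, by -0.88 (SE 0.16, adjusted p = 0.00425). Tasor, Daxx and Morc2a did not overlap between the lines. Of all genes, 2.38% were higher in LM8 without overlap, as Tasor was, and 13.9% lower, as Daxx and Morc2a were. For LM8_91 versus Dunn_25, Mphosph8 was higher by 2.39 and Tasor by 2.24, and Daxx was lower by -1.13.

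The methyl donor genes were bright on all arrays. Of 7 genes, 0 were higher and 4 lower in LM8 with passages pooled. Their median was -0.54, beside -0.68 over all genes and -0.39 over the 12754 probes well above background on every array. Mtr, methionine synthase, was lower by -1.02 (SE 0.23, adjusted p = 0.0117) and Ahcy, which clears the methylation by-product S-adenosylhomocysteine, by -1.01 (SE 0.27, adjusted p = 0.0217, limma). The mean log2 level of the list on an array was 2.98 to 3.32 in Dunn_25, 2.79 to 2.95 in Dunn_86, 2.46 to 2.67 in LM8_24 and 2.21 to 2.50 in LM8_91.

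Most of the germline genes listed as kept silent by promoter methylation in somatic cells were near background in all groups. An exception was 1 gene, with group means of 0.03 to 0.75, which was well above background on every array. Of 14 such genes 1 to 2 were well above background on the Dunn_25 arrays, 1 to 3 on Dunn_86, 2 to 3 on LM8_24 and 4 to 5 on LM8_91. With passages pooled 0 were called higher and 6 lower in LM8, among them Tdrd1 and Dpep3, which were not well above background on any array, so that no size is given. The 75th percentile of the arrays moved in the same order of groups, and its part in these background signals was not tested. Of 16 proliferation genes 1 was higher and 4 were lower with passages pooled, and the mean log2 level of the list was 2.06 to 2.88 in Dunn_25, 2.43 to 2.47 in Dunn_86, 2.45 to 2.62 in LM8_24 and 2.41 to 2.54 in LM8_91. This mean leaves out genes whose spots were flagged on an array, so the genes averaged differ between arrays, among them those of Dunn_25. Between passages, only Gadd45g of these lists passed, lower in late LM8 by -1.35 (SE 0.20, adjusted p = 0.0236). Krt5 of the epithelial markers was higher there by 1.94 (adjusted p = 0.033) and was well above background on 2 of 3 LM8_91 and 0 of 3 LM8_24 arrays.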

How the data were processed

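Total RNA of the mouse lines was labelled with Cy3 and hybridised to 12 arrays on 3 slides. Per the file headers, the authors' arrays were read with Agilent Feature Extraction 10.7.3, and the deposited processed intensity is background-subtracted. The authors' series table holds the same processed intensity with no scaling between arrays. Probes were named by matching the transcript of the array design to RefSeq (GRCm38.p6, names only), and 26581 of 39429 (67.4%) matched. Control spots and flagged outliers were left out and spots of a probe averaged. Log2 signals were scaled to the 75th percentile of each array and linear models with moderated variances were fitted to the groups compared (limma 3.58.1, R 4.3.3), with 6 arrays a line when passages were pooled. P-values were adjusted by the method of Benjamini-Hochberg over all probes, with 0.05 as the limit. The script recovered known changes in simulated data. Members and gene lists were chosen with earlier results of these data known. All members were named, and of each other list at most the 2 largest called rises and falls of a comparison, with the 3 genes most like Dnmt1. The result of 1 gene that this rule would name is not reported here. Normexp used the median spot signal with an offset of 50, in place of the mean signal. The number of arrays, 3 a group, limits the precision. Figures were drawn with matplotlib 3.10.9.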

Additional observations from a re-analysis of the deposited data

How the results depend on the processing

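With 3 arrays a group and early Dunn arrays dimmer than the others, calls near the threshold moved with the setting, and the cause was not tested. Between the passages of Dunn the count of members called was 0, and 7 with array weights, whose estimation stopped before it converged in comparisons of 6 arrays. For LM8_24 versus Dunn_25 it was 0, but 2 at over 2-fold with an unadjusted p under 0.05, 1 after quantile normalisation, 1 after normexp, 2 over probes well above background, 3 with a floor, 5 with array weights, 2 in a fit of all 12 arrays and 1 in the unscaled table. For LM8_91 versus Dunn_86 it was 0, but 3 over probes well above background, 5 with array weights and 2 by the methods' t-test. For LM8_24 versus Dunn_86 it was 0, but 1 over probes well above background and 4 with array weights. For LM8_91 versus Dunn_25 the 3 calls became 7 with array weights and 7 in the unscaled table, where Dnmt1 (adjusted p = 0.42) and Uhrf1 (0.191) were not among them. Normexp and the methods' t-test each gave 2 calls there, Dnmt1 (adjusted p = 0.0342 and 0.0364) and 1 member that was not among the 3. Both lost Uhrf1 (adjusted p = 0.0644 and 0.0763) and Setdb1 (0.541 and 0.0793), with Setdb1 at 0.26 after normexp. Quantile normalisation lost Setdb1 (0.0783). With passages pooled the 3 calls became 0 at over 2-fold and 5 with the mean of the probes of a gene.

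The replicate number as a block (the slide) left 1 call for LM8_91 versus Dunn_25, Dnmt1 with an adjusted p of 0.0225, and changed no other count by over 1.5 times. Same-numbered arrays deviated together (correlation over 0.1) in 12 of 18 pairs of arrays, from -0.237 to 0.678. Only for Dunn_25 and Dunn_86 did all 3 slides pass, at 0.226 to 0.678, and there the block gave -0.61 for Dnmt1 (adjusted p = 0.309) and 0.82 for Setdb1 (adjusted p = 0.201), still 0 calls. In the other comparisons the numbers were not established as pairs. The within-slide differences and block fits given there, as for LM8_91 versus Dunn_25 (0.063 to 0.329), are only alternatives to the main fit.

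With single arrays omitted there were 0 to 2 calls for LM8_24 versus Dunn_25 (2 without Dunn_25 replicate 2) and 0 to 1 for LM8_91 versus Dunn_86 (1 without Dunn_86 replicate 1). There were 0 to 4 for LM8_91 versus Dunn_25 and 1 to 3 with passages pooled. The other comparisons stayed at 0. For LM8_91 versus Dunn_25, leaving out any LM8_91 array or Dunn_25 replicate 3 left 0 calls. With passages pooled Dnmt1 was called in all 12 such fits, Uhrf1 was lost without LM8_91 replicate 2 or 3 or LM8_24 replicate 3 (adjusted p = 0.0507 to 0.0641), and Setdb1 was lost in 10 of 12 fits.

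The unscaled table turned the sign for LM8_91 versus Dunn_25 to 0.56 for Dnmt1, 0.85 for Uhrf1, 1.61 for Dnmt3a, 1.45 for Dnmt3b, 1.55 for Dnmt3l, 1.65 for Tet3 and 1.48 for Trim28. With passages pooled it gave 0.28 for Dnmt1, 0.43 for Uhrf1, 0.55 for Dnmt3b, 0.86 for Trim28, 0.99 for Dnmt3l and 1.05 for Tet3. The Dnmt3l values are at background and carry no direction. Quantile normalisation turned Dnmt3l to 1.40 for LM8_91 versus Dunn_25.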
